A study of Arabidopsis thaliana with 12 samples.

Results

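Peaks of fibrillarin CLIP-seq along the 25S ribosomal RNA region of Arabidopsis thaliana were described by their position. The region spans 3600 nt on the plus strand behind each of the nuclear 5.8S genes, chr2:5946-9545 behind AT2G01020 and chr3:14199917-14203516 behind AT3G41979 (TAIR10.1). It starts with the internal transcribed spacer ITS2 and goes on into the 25S rRNA, and positions are counted from 1 at the first nucleotide after the 5.8S gene. Of 1037099 peaks deposited for all libraries, 3662 start in it. In the study, 14-day-old Col-0 seedlings were crosslinked with ultraviolet light, and RNA bound to a fluorescent protein was immunoprecipitated and sequenced as small RNA. Seedlings expressed 1 of 3 proteins, GFP-FIB1, CFP-FIB2 or, as the negative control, GFP without a partner, with 4 replicates in each group. FIB1 carries GFP and FIB2 carries CFP, and no CFP-only group was analysed here, so the paralog and its tag cannot be told apart. All 3 groups are transgenic seedlings on the Col-0 background, and no source used here gives the promoters of the transgenes.

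Fibrillarin, a methyltransferase, is the catalytic subunit of box C/D snoRNPs, small nucleolar particles of RNA and protein. In these particles a guide snoRNA pairs with ribosomal RNA through a stretch just upstream of its box D or D', and the ribose of the target nucleotide paired to the fifth base before the box is methylated. The 25S rRNA, the large rRNA of the 60S subunit, is one of the main targets, and ITS2 separates it from the 5.8S rRNA in the precursor and is removed during processing.

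The sequences that the results turn on are given 5' to 3' as DNA letters from RefSeq TAIR10.1, all rRNA stretches on the plus strand. The first shows where coverage began, at chr2:6074-6193, with capitals from position 189, the first nucleotide covered by a peak in any library.
Start of the covered stretch: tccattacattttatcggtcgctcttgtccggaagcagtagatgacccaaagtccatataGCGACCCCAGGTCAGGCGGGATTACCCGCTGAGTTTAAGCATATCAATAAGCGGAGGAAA
The next pairs show a snoRNA gene with its guide in capitals and the 25S stretch with the paired bases in capitals, chosen because large peaks lie over or next to the predicted nucleotide. AT4G08125 (AtsnoR24d, chr4:14468649-14468743, minus strand) pairs by 10 bases and predicts position 3025.
AT4G08125: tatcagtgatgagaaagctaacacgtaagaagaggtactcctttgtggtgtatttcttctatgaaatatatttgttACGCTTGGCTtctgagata
25S around 3025, chr3:14202928-14202992: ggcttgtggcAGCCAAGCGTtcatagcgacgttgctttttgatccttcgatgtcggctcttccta
AT3G00985 (AtsnoR13-2, chr3:104978-105057, minus strand) pairs by 11 bases and predicts position 3489.
AT3G00985: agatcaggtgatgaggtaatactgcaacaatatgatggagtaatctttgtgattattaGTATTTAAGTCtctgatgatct
25S around 3489, chr2:9421-9486: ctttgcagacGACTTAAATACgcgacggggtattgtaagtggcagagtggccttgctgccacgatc
AT1G09883 (snoR117, chr1:29911741-29911812, minus strand) pairs by 12 bases and predicts position 2302.
AT1G09883: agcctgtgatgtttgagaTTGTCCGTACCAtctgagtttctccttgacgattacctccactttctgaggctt
25S around 2302, chr3:14202205-14202271: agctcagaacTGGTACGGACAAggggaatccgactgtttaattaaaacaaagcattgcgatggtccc
AT5G07725 (AtsnoR29-1, chr5:20795723-20795828, plus strand) pairs by 10 bases and predicts position 2580.
AT5G07725: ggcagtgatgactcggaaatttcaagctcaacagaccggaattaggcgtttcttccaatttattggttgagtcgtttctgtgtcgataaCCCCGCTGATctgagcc
25S around 2580, chr3:14202482-14202546: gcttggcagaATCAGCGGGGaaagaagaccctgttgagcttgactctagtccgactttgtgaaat
Stretches of windows among the 4 largest fold changes over GFP for at least 1 tagged fibrillarin follow, although neither window was called in the genome-wide fit. A stretch that no library missed and the end of coverage come after them. Window 34, positions 3301 to 3400, is shown to its last covered nucleotide, with capitals from the first start to the last end of the libraries' largest peaks there.
Window 34, chr3:14203217-14203294: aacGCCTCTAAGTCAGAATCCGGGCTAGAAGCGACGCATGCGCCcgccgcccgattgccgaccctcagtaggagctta
The largest peak of window 8, positions 701 to 800, is in capitals with its flanks.
Window 8, chr2:6654-6719: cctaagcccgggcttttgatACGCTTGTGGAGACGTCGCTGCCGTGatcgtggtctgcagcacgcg
The longest run covered in all 12 libraries, positions 2122 to 2199, is in capitals.
Covered in all libraries, chr3:14202028-14202125: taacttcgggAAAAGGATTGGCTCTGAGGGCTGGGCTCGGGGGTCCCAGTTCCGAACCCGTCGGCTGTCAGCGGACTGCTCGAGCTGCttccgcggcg
The end of the covered stretch is in capitals up to position 3575, the last nucleotide covered in any library.
End of the covered stretch, chr2:9405-9535: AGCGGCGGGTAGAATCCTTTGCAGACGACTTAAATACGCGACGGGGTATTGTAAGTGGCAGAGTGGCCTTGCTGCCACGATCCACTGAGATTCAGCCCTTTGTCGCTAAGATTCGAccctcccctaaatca

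Depth is known only as reads in called peaks, which ranged from 4045675 to 10095037 in GFP-FIB1, from 7749681 to 12438185 in CFP-FIB2 and from 2811379 to 11568238 in GFP libraries. The libraries fell into 3 sets by where their peaks lay across the genome, although the labels name no batch. Set A held GFP-FIB1 replicate 1, CFP-FIB2 replicate 1 and GFP replicates 1 and 2. Set B held GFP-FIB1 replicate 2, CFP-FIB2 replicate 2 and GFP replicate 3, and set C the remaining 5 libraries. Correlations of genome-wide profiles were 0.713 to 0.876 within a set and 0.013 to 0.635 between sets. Leaf mRNAs of these seedlings were present: RBCS1A, RCA, LHCB1.3 and LHCB3, which encode Rubisco, Rubisco activase and light-harvesting proteins, had peaks in 12 of 12 libraries, and LHCB2.1, another light-harvesting protein gene, in 11.

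The 25S region took a large share of the reads in peaks in every library, with or without fibrillarin in the tagged protein. In GFP-FIB1 replicates 1 to 4 its share was 31.2%, 25.6%, 23.2% and 18.2%. In CFP-FIB2 replicates 1 to 4 it held 39.6%, 27.4%, 21.9% and 15.8%. In GFP replicates 1 to 4 it held 31.1%, 34.8%, 33.5% and 27.4%. The means were 24.6% ± 5.41 in GFP-FIB1 and 26.2% ± 10.1 in CFP-FIB2, against 31.7% ± 3.25 in GFP (SD, n = 4 each), and the groups overlapped. The difference was -7.12 percentage points for GFP-FIB1 (two-sided exact permutation p = 0.0857) and -5.54 for CFP-FIB2 (exact permutation p = 0.343). Without CFP-FIB2 replicate 1 the CFP-FIB2 difference was -10.03 (exact permutation p = 0.0286, adjusted p = 0.514), and without CFP-FIB2 replicate 4 it was -2.08 (exact permutation p = 0.657). With labels exchanged within sets only, the differences were -5.43 (exact permutation p = 0.167) and -2.69 (exact permutation p = 0.556). All 18 tests of 6 per-library values in 3 comparisons had an adjusted p of 1.0, and the smallest p that 4 against 4 libraries allow is 0.0286. Only peaks are listed, so fewer crosslinked molecules and more of another RNA in the library cannot be told apart.

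The number of peaks, the length covered and the balance against 18S rRNA did not separate the groups either. The region held 451, 251, 227 and 246 peaks in GFP-FIB1, 493, 236, 199 and 172 in CFP-FIB2, and 457, 549, 212 and 169 in GFP. The 4 libraries of set A were the 4 highest, at 451 to 549 peaks, and the other 8 held 169 to 251. Exact permutation tests gave p = 0.714 for GFP-FIB1 and p = 0.629 for CFP-FIB2 against GFP. Leaving out 1 library moved the CFP-FIB2 difference between -144.4 and -4.33 peaks. Peaks were short, with a median length of 4 nt in each set A library and 7 to 9 nt in the others. The covered length, summed over the copies, averaged 2427 ± 89.3 nt in GFP-FIB1 and 2292 ± 313 nt in CFP-FIB2, against 2421 ± 366 nt in GFP (SD, n = 4 each). The log2 ratio of 25S-region reads to reads of the 18S genes AT2G01010 and AT3G41768 averaged 1.08 ± 0.11 in GFP-FIB1 and 0.85 ± 0.74 in CFP-FIB2, against 1.03 ± 0.38 in GFP (SD, n = 4 each). CFP-FIB2 replicate 4 stood at -0.25, the only library with more 18S than 25S reads, and the lowest GFP library was replicate 1 at 0.50. Without CFP-FIB2 replicate 4 the difference of CFP-FIB2 from GFP was 0.18 in place of -0.18.

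**Figure D1:**
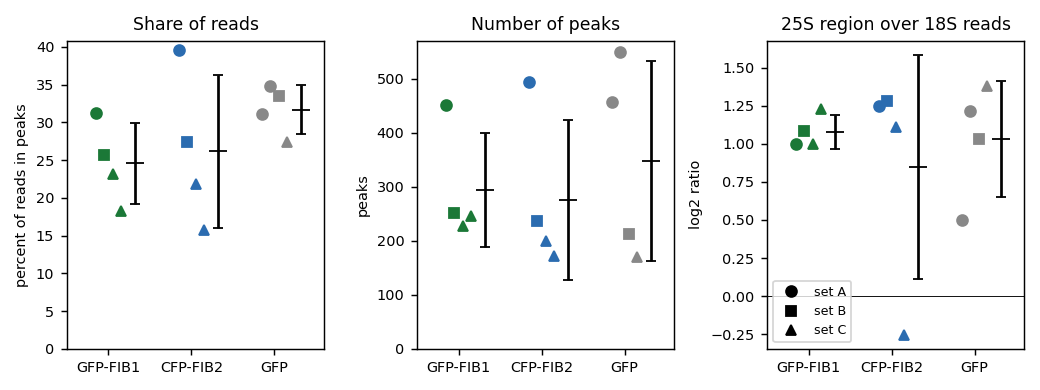
Share of reads in peaks, number of peaks and log2 ratio of 25S-region to 18S reads, 1 point per library, with the group mean ± SD beside it. Point shapes give the set: the 4 libraries of set A hold 451 to 549 peaks, and CFP-FIB2 replicate 4 is the only point below 0 in the ratio.

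No peak started in the first 188 nt of the region in any library, and coverage began at position 189. That stretch lies in the spacer next to the 5.8S gene, and its emptiness was shared by GFP-FIB1, CFP-FIB2 and GFP. The RefSeq annotation used here holds no 25S gene at either locus, so the end of ITS2 was not read from it. Between positions 189 and 200, CFP-FIB2 replicates 3 and 4 had peaks with 0.104% and 0.0632% of their region reads, and GFP replicate 2 had peaks with 1.31%. No GFP-FIB1 library had a peak there. At the other end the last covered position was 3575, and the final 25 nt had no peak. Peak lists hold only called peaks, so reads below the caller's limit in these stretches are not seen.

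Between these ends coverage was broken up, with gaps and runs common to all libraries. Of 3600 positions, 673 (18.7%) were covered in all 12 libraries and 532 (14.8%) in none. Besides both ends, the longest gaps common to all libraries were positions 3379 to 3459 (81 nt), 1509 to 1561 (53 nt) and 622 to 656 (35 nt). The longest runs covered in all libraries were 2122 to 2199 (78 nt), 2562 to 2623 (62 nt) and 2769 to 2815 (47 nt). All 4 libraries of a group covered 1110 positions in GFP-FIB1, 1026 in CFP-FIB2 and 1146 in GFP. No library of a group covered 839 positions in GFP-FIB1, 713 in CFP-FIB2 and 911 in GFP. At least 1 of the 8 tagged fibrillarin libraries but no GFP library covered 379 positions, and at least 1 of the 4 GFP libraries but no tagged fibrillarin library covered 39, counts that also reflect the unequal number of libraries. Only 1 position was covered in all 8 tagged fibrillarin libraries and in no GFP library, and 0 positions had the opposite pattern.

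**Figure D2:**
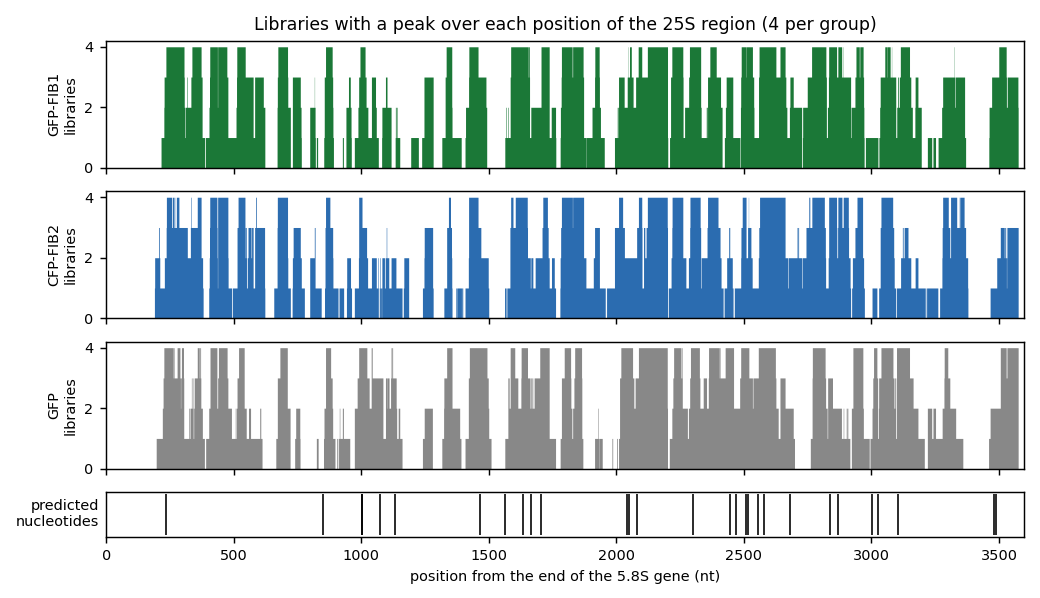
Number of libraries of each group (0 to 4) with a peak over each position from the end of the 5.8S gene, GFP-FIB1 at the top, then CFP-FIB2, then GFP; ticks mark 29 nucleotides predicted to be guided by box C/D snoRNAs. The empty first 188 nt and the gap from 3379 to 3459 are common to the 3 groups.

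Reads were concentrated in a few 100-nt windows of the distal part of the region. The 6 windows with the highest mean level over all libraries, both copies summed, were windows 31, 26, 22, 28, 36 and 24. Their mean levels were 27700, 21260, 20740, 19040, 14720 and 13910 RPM (reads in peaks relative to all reads in tested windows, per 1000000, after scaling by a TMM factor). Together they held 38.0% of the region's reads on average, 34.2% to 44.0% by library, against 16.7% for an even spread. These windows were picked as the highest in the same libraries, so a mean share above an even spread was built in. The even spread also counts window 1, which held no reads. Across windows 3 to 36 the mean share of reads and the G+C content had a Spearman correlation of -0.29, a description over 34 windows that share transcript and library.

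The order of the windows followed the library set more than the tagged protein, but the sets were found from these same peak lists. Window 31, positions 3001 to 3100, held 7.45%, 13.3% and 10.03% of region reads in GFP-FIB1 replicates 2 to 4. It held 12.6%, 10.2% and 4.83% in CFP-FIB2 replicates 2 to 4, and 14.4% and 25.1% in GFP replicates 3 and 4. In the set A libraries it held less, 1.23% in CFP-FIB2 replicate 1 to 4.93% in GFP replicate 1, with GFP-FIB1 replicate 1 and GFP replicate 2 between, and only CFP-FIB2 replicate 4 of the other sets was as low. Window 26, positions 2501 to 2600, was highest in set A libraries of CFP-FIB2 (11.7%) and GFP (14.9% and 14.0%), and lay between 2.65% and 6.45% in all other libraries. Window 28 took 21.7% of the region's reads in GFP-FIB1 replicate 1 and 3.202% to 9.34% elsewhere. Over the 36 windows, pairs of libraries from the same set had a median correlation of 0.776 (19 pairs). Pairs of the same group from different sets had 0.394 (15 pairs), and pairs that differed in both had 0.364 (32 pairs). Because the sets were found from peak positions, a higher correlation within a set is partly built in and is no separate result.

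**Figure D3:**
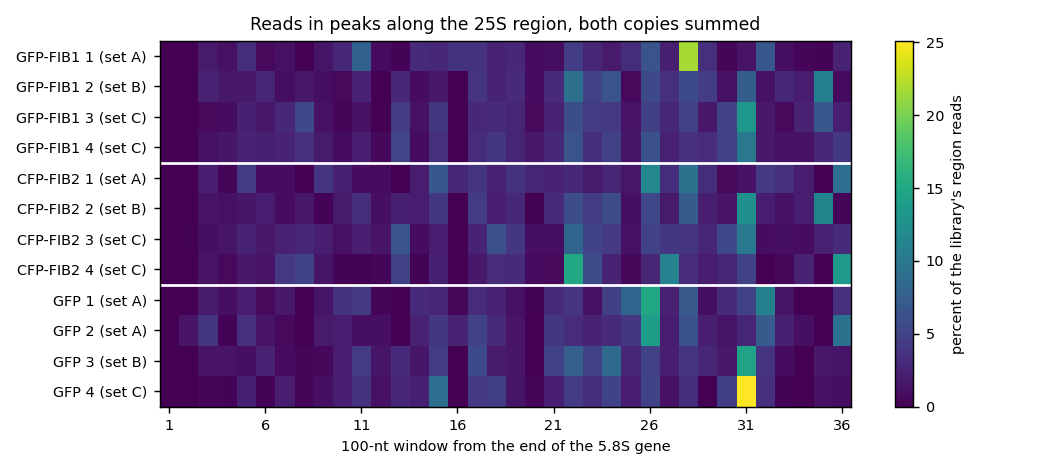
Percent of each library's 25S-region reads in 36 windows of 100 nt, GFP-FIB1 libraries at the top, then CFP-FIB2, then GFP, with both copies summed. Window 31 is brighter in sets B and C than in set A, except that CFP-FIB2 replicate 4 of set C (4.83%) is as low as GFP replicate 1 (4.93%). Window 28 of GFP-FIB1 replicate 1 holds 21.7%.

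The largest peak of a library sat at 1 of 5 places. Peaks starting at 3029 to 3035, which are the largest in 5 libraries, held 5.62%, 12.1% and 8.70% of region reads in the GFP-FIB1 libraries of sets B and C. They held 11.5%, 8.58% and 4.09% in the CFP-FIB2 libraries of those sets. In GFP replicates 3 and 4 they held 12.6% and 19.98%, as high as in the tagged fibrillarins or higher. In set A these peaks were at 0 in 3 libraries and at 0.800% in GFP replicate 1. The peak starting at 3491 or 3492 was the largest in GFP-FIB1 replicate 2 (9.34%) and CFP-FIB2 replicate 2 (11.3%). The 2 libraries had 241710 and 334698 reads in it, against 39654 reads (1.02%) in GFP replicate 3, the GFP library of the same set. In set C the same start held 1.68% and 1.95% in GFP-FIB1 and 1.29% and 0 in CFP-FIB2, against 0.860% in GFP replicate 4. The peak at 3531 to 3532 was the largest in CFP-FIB2 replicates 1 (6.59%) and 4 (13.3%), and held 0.627% in GFP replicate 4. No GFP-FIB1 library had a peak starting there. The peak at 2775 was the largest in GFP-FIB1 replicate 1 (17.1%), and held 3.22% in CFP-FIB2 replicate 1 and 2.17% in GFP replicate 2. The peak at 3128 was the largest in GFP replicates 1 (6.57%) and 2 (4.37%) and held 0.478% in GFP replicate 4, and no tagged fibrillarin library had a peak starting there. These places were picked as each library's maximum and carry no test.

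Reads were split between the chromosome 2 and chromosome 3 copies by position. The copies have the same length and differ at 13 positions (99.6% identical), with up to 978 nt between differences, so most short reads match both equally. In windows 1 to 15 the chromosome 3 copy held a median of 5.22% of the reads over libraries (0.186% to 23.8%). In windows 16 to 34 it held a median of 90.6% (85.6% to 94.0%), and in windows 35 and 36 it held 0% in all libraries. The libraries differed most in windows 1 to 15, where the chromosome 3 copy held 23.1%, 0.779%, 4.61% and 1.17% in GFP-FIB1 and 3.45%, 15.8%, 0.278% and 0.186% in CFP-FIB2, against 17.9%, 5.84%, 15.7% and 23.8% in GFP. There 6 of the 8 tagged fibrillarin libraries lay below all 4 GFP libraries, a difference that was not tested. Of 35 windows with reads, 14 had over 90% on chromosome 3, 12 had under 10%, and 9 lay between. No source used here says how reads matching both copies were placed, so values of 1 copy are uncertain and the sum of both is the firmer level. Of the chromosome 2 peaks, 29.9% to 47.3% by library overlapped a chromosome 3 peak at the same position by at least 1 nt. The names the authors gave follow the loci annotated over the copies: 48.9% of the peaks and 63.1% of the reads carry AT3G06365, a miscellaneous RNA, and 27.8% of the peaks are named intergenic. On the minus strand the same bounds held 2 to 8 peaks per library with 27 to 262 reads. The longest word shared with the chloroplast 23S rRNA was 16 nt, at positions 3058 to 3073, and with the mitochondrial 26S rRNA 15 nt, at 3206 to 3220.

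**Figure D4:**
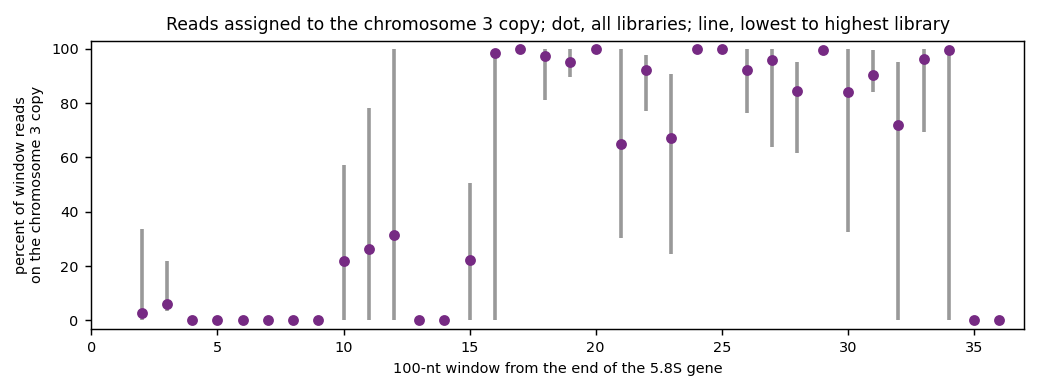
Percent of each window's reads on the chromosome 3 copy, over all libraries (dot) and from the lowest to the highest library (line). Windows 1 to 15 lie mostly on chromosome 2, windows 16 to 34 mostly on chromosome 3, and windows 35 and 36 at 0%.

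Nucleotides that box C/D snoRNAs could guide were predicted from sequence alone. Of 287 annotated snoRNA genes, 166 held a C box (TGATGA with at most 1 mismatch) near the 5' end and a D box (CTGA) near the 3' end. Of these, 53 had at least 10 Watson-Crick pairs with the region ending at most 1 base before a box D or D', and they predicted 29 nucleotides between positions 232 and 3489. The guide lay before box D in 40 genes and before box D' in 13. For 15 nucleotides more than 1 gene gave the same prediction, as the 4 AtsnoR24 genes do for 3025. A match is a description of sequence, not a measured methylation.

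Predicted nucleotides were often under peaks, in GFP libraries as well as in tagged fibrillarin libraries. Of 29, 22 (75.9%) were covered in at least 6 libraries, compared with 59.3% of all positions from 189 on. In all 12 libraries 4 were covered (13.8%), namely 1002, 1635, 2302 and 2580, compared with 19.7% of those positions. By library, 34.5% to 79.3% of them were covered, compared with 46.1% to 64.5% of the positions, so they were not covered more often throughout. Position 849, predicted by AtU18-1, was covered in no library. Peaks holding a predicted nucleotide took 9.68% ± 3.97 of the region's reads in GFP-FIB1 and 9.78% ± 2.96 in CFP-FIB2, against 11.6% ± 5.58 in GFP (SD, n = 4 each). Exact permutation tests gave p = 0.600 and p = 0.514 for the differences of -1.94 and -1.84 percentage points. Within sets they were -4.01 (exact permutation p = 0.167) and -3.05 (exact permutation p = 0.333).

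Among single nucleotides, 2302 held the most reads on average, with 1.74% of region reads in peaks over it. By library this was 0.586%, 2.12%, 1.92% and 1.16% in GFP-FIB1, 0.0387%, 3.38%, 2.61% and 1.43% in CFP-FIB2, and 0.723%, 0.0911%, 3.98% and 2.84% in GFP. The highest values were those of GFP replicate 3 and CFP-FIB2 replicate 2, both of set B. Position 1635, predicted by AtU24-2, had 1.29% on average, from 0.0281% in GFP replicate 1 to 3.63% in GFP replicate 3. At position 3025 only 2 libraries had a peak over the nucleotide, GFP-FIB1 replicate 1 and GFP replicate 1, whereas peaks starting 1 to 10 nt after it held 7.14% of region reads on average. These are the peaks of window 31 that start at 3029 to 3035. At 3489, predicted by AT3G00985 and AT5G02295, the peaks starting at 3491 or 3492 begin 2 or 3 nt after the nucleotide.

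Starts just after predicted nucleotides held a larger share of reads than of positions on average, in part through the peaks after 3025. The 271 positions that lie 1 to 10 nt after a predicted nucleotide are 7.94% of the positions from 189 on. Peaks starting there held 19.7% ± 7.43 of region reads in GFP-FIB1 and 18.1% ± 10.6 in CFP-FIB2, against 21.3% ± 8.98 in GFP (SD, n = 4 each), and the groups overlapped. Those after 3025 alone account for the 7.14% given above, and CFP-FIB2 replicate 4 and GFP-FIB1 replicate 1 had 8.62% and 9.05% in all. CFP-FIB2 replicate 1 and GFP replicates 1 and 2, with at most 0.800% in peaks starting at 3029 to 3035, still had 13.0%, 13.1% and 14.8%. By number of peaks the means were 12.03% in GFP-FIB1 and 8.94% in CFP-FIB2, against 12.2% in GFP. Starts 1 to 10 nt before a predicted nucleotide held 6.76% ± 1.55 in GFP-FIB1 and 7.61% ± 2.86 in CFP-FIB2, against 12.7% ± 3.21 in GFP. All 4 GFP-FIB1 values, 4.69% to 8.46%, lay below all 4 GFP values, 8.75% to 16.5%, while CFP-FIB2 values of 3.57% to 9.69% overlapped them. This measure was chosen after the values were seen and was not tested.

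The guide snoRNAs themselves also carried peaks. Of the 53 genes with a predicted nucleotide, 37, 53, 52 and 53 had a peak in GFP-FIB1 and 42, 53, 52 and 53 in CFP-FIB2, against 24, 38, 46 and 45 in GFP. As a share of all reads in peaks, peaks over them held 0.181%, 4.30%, 3.61% and 5.28% in the GFP-FIB1 libraries, and 0.341%, 4.48%, 2.64% and 0.966% in the CFP-FIB2 libraries, by replicate. In GFP they held 0.0157%, 0.0791%, 0.164% and 0.260%. In each set this share was higher in the tagged fibrillarin libraries than in the GFP libraries of that set, whereas the share of the 25S region lay below GFP in sets B and C. By number of genes, GFP-FIB1 replicate 1 (37) lay below GFP replicate 2 (38) in set A. No background over other snoRNA genes or all genes was computed. GFP replicate 1, with the fewest of these genes, also had the fewest reads in peaks. The difference between guides and targets was not tested.

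A genome-wide fit of 19044 windows of 100 nt (limma on log2(RPM + 1), all 12 libraries) called no window of the region in any comparison. Of the 52 region windows past the filter, counting each copy, 0 had an adjusted p under 0.05 for GFP-FIB1 over GFP, CFP-FIB2 over GFP or GFP-FIB1 over CFP-FIB2, and the background was 0.0% of all windows for each. This count depends on the filter on low windows. Without it 29, 33 and 22 of 57 region windows were called in these comparisons, where 0.0114%, 0.0133% and 0.00919% of all 489850 windows were. Of these region windows, 12 were higher and 17 lower for GFP-FIB1 over GFP, and 20 and 13 for CFP-FIB2 over GFP. For GFP-FIB1 over CFP-FIB2 they were 3 and 19. Most of the 489850 windows are ones that the filter drops for few reads, so these percentages are no like background. The cause was not tested. At an unadjusted p under 0.05, 4 windows were higher and 2 lower for GFP-FIB1 over GFP, where 1.54% and 0.399% of all windows were. For CFP-FIB2 over GFP 6 were higher and 3 lower, where 1.27% and 0.21% of all windows were. Between GFP-FIB1 and CFP-FIB2 there were 0 in both directions, where 0.189% and 0.184% of all windows were. Both comparisons with GFP share the 4 GFP libraries. The log2 fold change was above 0 in 19 of the 52 windows for GFP-FIB1 over GFP, where 62.1% of all windows were, and in 28 for CFP-FIB2 over GFP, where 62.2% were. The median over the 52 windows was -0.47 for GFP-FIB1 over GFP, beside 0.28 over all windows. For CFP-FIB2 over GFP it was 0.26, beside 0.24, and it became -0.42, beside 0.04, when libraries were scaled by totals. CFP-FIB2 replicate 4 had a TMM factor of 0.347, which raises its RPM. GFP-FIB1 replicate 1 and GFP replicates 1 and 2, all of set A, had factors of 1.87, 1.68 and 1.45, which lower theirs. No direction is therefore given for the region as a whole in CFP-FIB2.

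Window 34 of the chromosome 3 copy had the largest fold change in both comparisons. Its level was 574, 5487, 6156 and 2346 RPM in GFP-FIB1 replicates 1 to 4, and 9491, 8211, 1725 and 11550 RPM in CFP-FIB2. GFP replicates 1, 3 and 4 were at 0 and GFP replicate 2 had 2601 RPM. The 7 tagged fibrillarin libraries other than GFP-FIB1 replicate 1 each had 8 to 14 peaks there, and GFP replicate 2 had 14. GFP replicates 3 and 4 had no peak on either copy of this window, and GFP replicate 1 had 184 reads on chromosome 2. The log2 fold change was 8.51 ± 1.93 (SE) for GFP-FIB1 over GFP, with an adjusted p of 0.961 (limma), and 9.78 ± 1.93 for CFP-FIB2 over GFP, with an adjusted p of 0.541 (limma). Without GFP replicate 2 the adjusted p (limma) fell to 0.00409 and 0.000637, and this 1 library decides whether the window of this copy is called. With the copies summed the log2 fold changes were 7.14 for GFP-FIB1 and 8.42 for CFP-FIB2, with adjusted p (limma) of 0.961 and 0.998. No library was left out of the fit with copies summed. GFP replicate 2 lies within the range of the tagged fibrillarins. No predicted nucleotide lies in this window.

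Windows 8, 13 and 35 of the chromosome 2 copy were among the largest fold changes of at least 1 comparison, and both set A GFP libraries were at 0 in each. Window 8, led by a peak from about 730 to 754 or 760, was at 0 in all 4 set A libraries. In sets B and C it had 4741, 13440 and 6701 RPM in GFP-FIB1 and 6349, 5733 and 24120 RPM in CFP-FIB2, against 1255 and 960 RPM in GFP. The 6 tagged fibrillarin libraries of sets B and C lay above the 2 GFP libraries of those sets, a subset chosen by where this peak was seen. Over all libraries each fibrillarin group overlapped GFP, and no share of all windows was computed for this subset. The log2 fold change for CFP-FIB2 over GFP was 4.87 ± 2.99 (SE; limma adjusted p = 0.998) and became 1.83 with the set as a term. Window 35, which holds predicted nucleotides 3480 (AtU33a and AtU33b) and 3489, had 383, 32490, 16920 and 5576 RPM in GFP-FIB1. It had 0, 43700, 4696 and 0 RPM in CFP-FIB2, against 0, 0, 7146 and 4104 RPM in GFP. The log2 fold change for GFP-FIB1 over GFP was 6.32 ± 3.01 (SE; limma adjusted p = 0.961) and 4.44 with the set as a term. For CFP-FIB2 over GFP it was 0.70, and -1.17 with the set as a term. Window 13, led by a peak from 1237 or 1246 to 1281, had 479, 8560, 10680 and 10200 RPM in GFP-FIB1 and 0, 8661, 13220 and 22670 RPM in CFP-FIB2, against 0, 0, 13210 and 8685 RPM in GFP. Above 0, GFP thus lay within the range of the tagged fibrillarins, and in set B the GFP library was the highest. The log2 fold change for GFP-FIB1 over GFP was 5.47 ± 2.79 (SE; limma adjusted p = 0.961) and 2.77 with the set as a term, and it rests on the set A libraries GFP replicates 1 and 2 at 0.

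Window 20 of chromosome 3 and window 19 of chromosome 2 were also among the largest. Window 20, positions 1901 to 2000, had 1451, 2233, 1556 and 3409 RPM in GFP-FIB1 and 12570, 657, 2166 and 3312 RPM in CFP-FIB2, against 553, 179, 0 and 1134 RPM in GFP. GFP-FIB1 did not overlap GFP there, and CFP-FIB2 replicate 2 lay below GFP replicate 4. Its log2 fold change over GFP was 4.30 in GFP-FIB1 and 4.75 in CFP-FIB2. It was 1 window of 52 above GFP without overlap for GFP-FIB1, where 0.473% of all windows were, and 2 windows were for CFP-FIB2, where 0.677% of all windows were. Window 19 on chromosome 2 had 233, 509, 192 and 235 RPM in GFP-FIB1 and 809, 1118, 597 and 267 RPM in CFP-FIB2, against 0, 0, 0 and 302 RPM in GFP. Most reads of this window were on chromosome 3, where the levels were 5055, 8219, 6176 and 4927 RPM in GFP-FIB1 and 16560, 9616, 7446 and 14160 RPM in CFP-FIB2, against 2175, 3582, 6203 and 4395 RPM in GFP. On chromosome 3, CFP-FIB2 lay above GFP without overlap. With the copies summed, the log2 fold change of window 19 was 0.69 for GFP-FIB1 over GFP and 1.64 for CFP-FIB2 over GFP, in place of 6.02 and 7.21.

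The most negative fold changes fell on the minor copy. Windows 10, 11, 12 and 15 of chromosome 3 and window 21 of chromosome 2, the copies that hold fewer of their window's reads, gave the 4 smallest log2 fold changes in each comparison, from -6.15 to -4.02. In window 15 of chromosome 3 the levels were 0, 0, 2586 and 114 RPM in GFP-FIB1 and 0, 7161, 0 and 0 RPM in CFP-FIB2, against 899, 0, 6710 and 14740 RPM in GFP. With the copies summed, most of these fold changes were smaller. For GFP-FIB1 over GFP, windows 10, 11 and 15 had -1.79, -0.50 and -1.01, and for CFP-FIB2 over GFP, windows 11, 12, 15 and 21 had -1.26, 0.09, -0.12 and -0.88. Window 12 stayed low in GFP-FIB1, at -4.41 ± 1.63 (SE; limma adjusted p = 0.961) over GFP, beside -5.22 on chromosome 3 alone. Its levels with the copies summed were 1287, 175, 0 and 991 RPM in GFP-FIB1 and 3657, 3917, 2780 and 1474 RPM in CFP-FIB2, against 750, 2729, 6075 and 3672 RPM in GFP. In all, 4 windows lay below GFP without overlap for GFP-FIB1, where 0.536% of all windows were. Of these, window 25 of chromosome 3 spans positions 2401 to 2500. It had 6089, 1869, 3284 and 2855 RPM in GFP-FIB1 and 7706, 3932, 2203 and 2487 RPM in CFP-FIB2, against 16220, 10640, 11810 and 6411 RPM in GFP. Its log2 fold change over GFP was -1.73 in GFP-FIB1 and -1.57 in CFP-FIB2, where only replicate 1 overlapped GFP. The predicted nucleotides of window 25, 2445 (U46-1 and U46-2) and 2470, were covered in 9 and 4 libraries. Window 26 of the same copy had 11310, 14840, 11490 and 12140 RPM in GFP-FIB1, against 28040, 35670, 20900 and 15830 RPM in GFP, and CFP-FIB2, at 9796 to 42470 RPM, overlapped GFP. The other 2 were windows 14 and 32 of chromosome 2. With the copies summed, windows 14, 25 and 26 lay below GFP without overlap for GFP-FIB1, 3 of 34 windows, where 0.541% of all windows were. Window 20 was 1 above GFP for GFP-FIB1, where 0.473% of all windows were, and window 19 was 1 above GFP for CFP-FIB2, where 0.673% were. None lay below GFP for CFP-FIB2, where 0.231% of all windows did. These windows outside the largest fold changes were named after their values were seen.

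**Figure D5:**
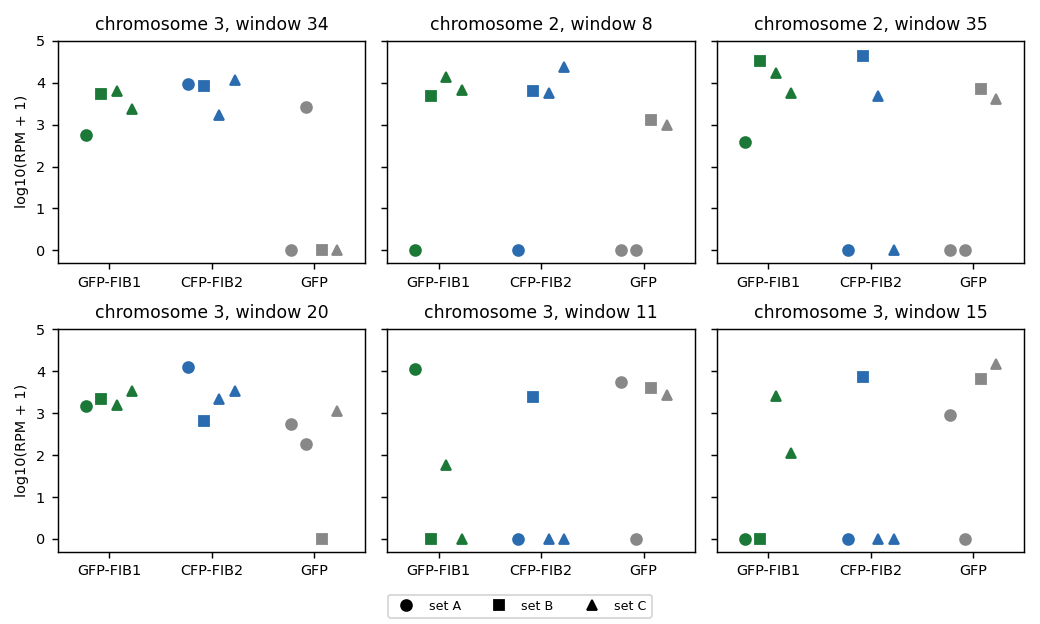
Level of 6 windows on the log10(RPM + 1) scale, 1 point per library, groups from left to right GFP-FIB1, CFP-FIB2 and GFP, with point shapes giving the set. In window 34 of chromosome 3 the 8 tagged fibrillarin libraries lie between 574 and 11550 RPM and 3 of 4 GFP libraries at 0.

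No value tested over the region passed its test between GFP-FIB1 and CFP-FIB2. The difference in the share of reads was -1.59 percentage points (exact permutation p = 0.8286), with the sign turning when GFP-FIB1 replicate 4 or CFP-FIB2 replicate 1 was left out. With labels exchanged within sets only, this difference was -2.74 (exact permutation p = 0.583). It was -8.39 in set A, -1.71 in set B and 1.88 in set C. The log2 fold change of GFP-FIB1 over CFP-FIB2 was above 0 in 15 of the 52 windows, where 49.8% of all windows were, but in 34 of the 52 when libraries were scaled by totals. Its median was -0.49 over the 52 windows, beside 0.00 over all windows, and 0.16 beside 0.24 when scaled by totals. No window of a single copy had groups that do not overlap, where 0.168% of all windows were above and 0.142% below. With the copies summed, window 12 had all 4 GFP-FIB1 libraries below all 4 CFP-FIB2 libraries, 1 window of 34, where 0.147% of all windows were. Its log2 fold change for GFP-FIB1 over CFP-FIB2 was -4.50 ± 1.63 (SE; limma unadjusted p = 0.0105, and an adjusted p of 1.0).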

How the data were processed

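CLIP-seq libraries of 3 groups with 4 replicates each were analysed, grouped by genotype label and title; the labels do not say that replicates are separate cultures, so p-values measure the spread between libraries, which may be technical. The authors deposited 1 peak list per library, called per library, with positions, strand, a name and a p-value of at most 0.0500. The name ends in a whole number of at least 3 that the sources do not explain; it was taken for the peak's read number, and if it were a height, sums over neighbouring peaks could count a read more than once. The submitters' processing notes name DESeq2; which aligner, caller and build were used, whether duplicates were removed and how deep the libraries are is not given in the sources used here. PCR copies may be counted, so exact 95% binomial intervals of the read shares, at most 0.108 percentage points wide, cover counting error only.

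Peak starts were converted to positions counted from 1 and placed on RefSeq TAIR10.1. Of overlapping peaks in 1 library the one with most reads was kept, which removed 4107 peaks and none in the region. The members, lists and windows were chosen with earlier results of these data known. Per-library values were compared by two-sided exact permutation over 70 splits, adjusted over 18 tests by the Benjamini-Hochberg method. Reads in peaks were summed by start over 100-nt windows, and windows with at least 10 reads at median depth in 4 libraries and 15 in all were kept. They were scaled by TMM factors (trims of 30% and 5%) and fitted on log2(RPM + 1) with limma 3.58.1 in R 4.3.3, with a variance trend. A window was called at an adjusted p under 0.05. On simulated data the fit of GFP-FIB1 over GFP over 19044 windows called 46.0% of windows changed 4-fold and 100.0% of those changed 16-fold. It called 0.053% of unchanged ones. The simulation gave every window the same relative spread, held no library sets, and placed changes only in better-covered windows. These rates therefore do not describe the real libraries or the region. Named region windows with SEs of 1.64 to 3.01 and fitted changes over 16-fold were not called. Named windows are the 6 with the highest mean level, the 4 largest and 4 smallest fold changes over GFP for each fibrillarin, and the first 2 and the last window; named peaks are the largest of each library, and named snoRNAs those with a predicted nucleotide in a named window; AtU18-1, AtU24-2, U46-1 and U46-2 were named outside this rule, after their values were seen. Python 3.11.15, pandas 2.3.3, scipy 1.17.1 and pysam 0.24.0 were used.

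Same-numbered replicates were checked for pairing by the correlation of their deviations from group means. With GFP it was 0.80, -0.13, 0.33 and 0.69 for GFP-FIB1 and 0.77, -0.34, 0.24 and 0.59 for CFP-FIB2, so numbers were not taken to pair libraries; between GFP-FIB1 and CFP-FIB2 it was 0.55 to 0.80. Alternatives covered the authors' p-value limit, overlaps, copies, denominators, guide rules, pseudocounts, filters, scalings, window sizes, a replicate block, a term for the set, leaving out each library, and Fisher's exact test on presence.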

Additional observations from a re-analysis of the deposited data

Results flagged for a closer look

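In groups of 4 libraries, a library was listed where its gap to the nearest other library exceeded the limit of Dixon's test for 4 values. Of 51 groups examined, 14 were listed, where chance lists about 1 in 20, and many of the groups hold libraries at 0. GFP-FIB1 replicate 1 had 451 peaks, where the other GFP-FIB1 libraries had 227 to 251. CFP-FIB2 replicate 4 had a log2 ratio of 25S-region to 18S reads of -0.254, where the other CFP-FIB2 libraries had 1.11 to 1.28. GFP replicate 2 had 1.313% of its region reads in peaks starting in the first 200 nt, where the other GFP libraries had none.

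Single libraries also stood apart in named windows. In window 19 of chromosome 2, GFP-FIB1 replicate 2 had 509.4 RPM, and GFP replicate 4 had 302.4 RPM while the other GFP libraries were at 0. In window 35 of chromosome 2, CFP-FIB2 replicate 2 had 43700 RPM. CFP-FIB2 replicate 2 was also the only CFP-FIB2 library above 0 in windows 10, 11 and 15 of chromosome 3, with 3989, 2422 and 7161 RPM. In GFP-FIB1, replicate 3 had 173.3 RPM in window 10 and 2586 RPM in window 15 of chromosome 3, and replicate 1 had 11200 RPM in window 11. In window 12 of chromosome 3, CFP-FIB2 replicate 1 had 3648 RPM. In window 34 of chromosome 3, GFP replicate 2 had 2601 RPM, with the other GFP libraries at 0, and it is the library on which the call of that window turns.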

How the results depend on the processing

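No per-library value of the region passed its test in any of the settings tried, so the signs below belong to differences within the spread between libraries. Some settings could not pass. Sign flips for the replicate block allow no p under 0.125, and exchange within sets has 18 orders against GFP, too few for a p under 0.05. With 1 library left out, even an exact permutation p of 0.0286 adjusted to 0.514. The lack of a pass in these settings therefore decides nothing. With labels exchanged within sets, GFP-FIB1 and CFP-FIB2 exceeded GFP by 18.17 and 10.17 peaks, CFP-FIB2 exceeded GFP by 32.33 nt of covered length, and the log2 ratio to 18S for GFP-FIB1 over GFP was -0.02359, each with the opposite sign to the difference reported. On the chromosome 3 copy alone, GFP-FIB1 over CFP-FIB2 was -2.75 peaks, CFP-FIB2 over GFP 11.75 nt and 0.01434 percentage points of reads starting in the first 200 nt, and the log2 ratio for GFP-FIB1 over GFP -0.1483. On the chromosome 2 copy alone, GFP-FIB1 over GFP was -15.25 nt, the log2 ratio 1.181 for CFP-FIB2 over GFP and -0.3491 for GFP-FIB1 over CFP-FIB2, and the share over predicted nucleotides 2.6 percentage points higher in GFP-FIB1 than in CFP-FIB2. With copies merged by position, a choice made after seeing the data, CFP-FIB2 over GFP was 13.25 nt. The share over predicted nucleotides for GFP-FIB1 over CFP-FIB2 was 2.668 with the nucleotide within 10 nt of the peak. With 2 choices made after seeing the data it was 0.04619 (up to 2 unpaired bases before the box) and 0.8315 (no boxes asked for), and this last rule gave 0.04446 for GFP-FIB1 over GFP. The causes were not tested.

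Leaving out 1 library turned the sign of several differences, whose ranges follow. The share of reads for GFP-FIB1 over CFP-FIB2 ranged from -5.045 to 2.902. Of those that kept their sign, the share for CFP-FIB2 over GFP ranged from -10.03 to -2.079, its number of peaks from -144.4 to -4.333 and its covered length from -294.0 to -1.333 nt. The number of peaks ranged from -112.2 to 14.42 for GFP-FIB1 over GFP and from -33.67 to 91.42 for GFP-FIB1 over CFP-FIB2. The covered length ranged from -159.2 to 133.4 nt for GFP-FIB1 over GFP. The log2 ratio ranged from -0.1305 to 0.1633 (GFP-FIB1 over GFP), from -0.3613 to 0.1829 (CFP-FIB2 over GFP) and from -0.1364 to 0.3758 (GFP-FIB1 over CFP-FIB2). The share in the first 200 nt for CFP-FIB2 over GFP ranged from -0.396 to 0.04183. The share over predicted nucleotides ranged from -3.606 to 0.3504, from -3.506 to 0.451 and from -1.441 to 1.639 in the same order of comparisons.

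The count of region windows called was 0 in every comparison with other pseudocounts, scalings, window sizes and a stricter p-value limit. It was also 0 with overlapping peaks kept, copies summed and the term for the set. With that term, 17 of all 19044 windows were called for each comparison with GFP, and 0 for GFP-FIB1 over CFP-FIB2. With the replicate block the region count was 0, so the block changed no call. Its smallest adjusted p (limma) was 0.1086 in GFP-FIB1 and 0.07045 in CFP-FIB2 against GFP. Fisher's exact test on presence also called 0. Its p cannot fall below 0.0286 with 4 against 4 libraries and was adjusted over at least 369588 windows, so this count decides nothing. Without the filter on low windows, 29, 33 and 22 of 57 region windows were called for GFP-FIB1 over GFP, CFP-FIB2 over GFP and GFP-FIB1 over CFP-FIB2. These were 12 higher and 17 lower, 20 higher and 13 lower, and 3 higher and 19 lower, in that order. Over all 489850 windows, most of them dropped by the filter for few reads, 56, 65 and 45 were called (0.0114%, 0.0133% and 0.00919%). The cause was not tested. Leaving out 1 library gave 0 to 1 call for each comparison with GFP, the 1 being window 34 of chromosome 3 without GFP replicate 2. Window 12 of chromosome 3 was -4.35 for CFP-FIB2 over GFP and 0.09011 with copies summed. The other 15 named fold changes kept their sign in all settings in which they could be fitted, but not their size. With copies summed, window 19 was 0.69 and 1.64 in place of 6.02 and 7.21, and the report gives windows 10, 11, 15, 21 and 34.

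With 4 libraries a group, 46.0% of simulated 4-fold changes were called. The simulated libraries fell into no sets and had the same relative spread in every window, so this rate does not describe the region. Named region windows with fitted changes over 16-fold were not called. Reads below the peak caller's limit count as 0, which can overstate a fold over a library without a peak.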
